A study of Ovis aries with 4 samples.

Results

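STAR, CYP17A1, SRD5A1, FDX1, FDXR, SCARB1 and SOAT1 bring cholesterol into ovarian cells and their mitochondria, store it, or turn it into steroid hormones. They were taken by gene name from 2 deposited lists of m6A peaks, 1 for young and 1 for aged sheep ovary. All 7 had a peak, of 5261 genes with a peak in either list, which is no result because genes with peaks were chosen for description. They held 12 of 8034 peaks, 6 in each list. The samples were ovarian tissue of Cele black sheep aged 1 to 2 years (young) or 5 to 6 years (aged), with an anti-m6A immunoprecipitate and an input library at each age, 4 samples in all. The labels name no genotype or treatment, and do not say how many animals a sample held. Only the peak lists of the immunoprecipitates were analysed here. Each age had a single list, so differences between ages have no replicate check and were not tested.

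In m6A (N6-methyladenosine), adenosines inside messenger RNA carry a methyl group. The mark is set mostly near stop codons and in 3' UTRs by the METTL3 and METTL14 methyltransferase, and bound by proteins that act on RNA decay and translation. Steroid hormones of the ovary are made from cholesterol, which cells take from lipoproteins, make themselves or release from stored esters. STAR moves it to the inner mitochondrial membrane, where the side chain cleavage enzyme CYP11A1 makes pregnenolone with electrons from FDXR through FDX1. Theca cells then use CYP17A1 to make androgens, granulosa cells turn these into oestrogen, and luteal cells make progesterone.

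Peaks are transcript regions with more signal in the immunoprecipitate than in the input. The fold enrichment (a linear ratio), log10 p, adjusted p and feature label of a peak are the authors' own. The deposited lists held no peak with a fold below 1.5, so a gene without a peak had none past the authors' thresholds and may still carry m6A. Sequencing depth and transcript abundance were not given in the sources used here. In whole tissue, a change in the number of cells of a type and a change in RNA per cell cannot be told apart.

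Of the 7 genes, STAR, CYP17A1 and FDXR were found in the young list alone, SRD5A1 and SCARB1 in the aged list alone, and FDX1 and SOAT1 in both. Over all 5261 genes with a peak, 41.3% were in the young list only, 26.9% in the aged list only and 31.8% in both, and the split of the members into 3, 2 and 2 lay near these shares. For comparison, 17.9% of the protein-coding genes in the gene table used here had a peak in the young list and 14.4% in the aged list. No member had a peak of another gene inside its span in either list. The folds of the members ran from 1.56 to 3.00 in the young list and from 1.55 to 2.19 in the aged list. In the young list 3 of 6 peaks lay under the lower quartile of 1.76, and in the aged list 3 of 6 under that of 1.67.

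**Figure D1:**
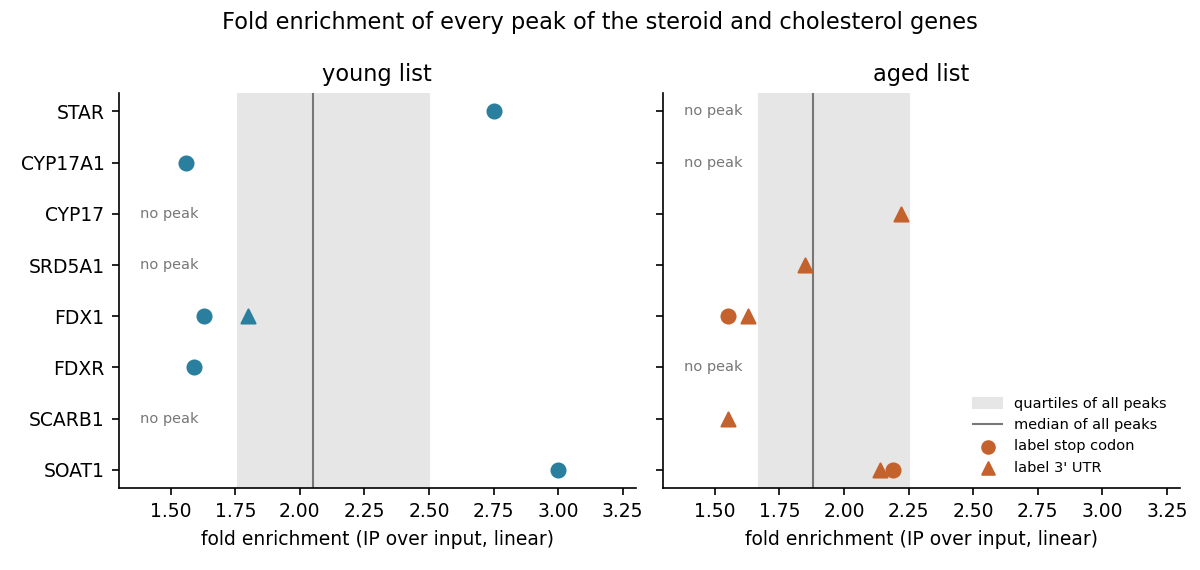
Fold enrichment (x axis, linear) of each peak of the 7 genes and of CYP17, a neighbour of CYP17A1 with the same deposited symbol, in the young list (left) and the aged list (right). Circles are peaks labelled stop codon, triangles peaks labelled 3' UTR, the grey band spans the quartiles of all peaks and the line is their median. SOAT1 (3.00) and STAR (2.75) lay above the young band, and no aged peak of these genes lay above the aged band.

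STAR, which delivers cholesterol to the enzyme that starts steroid synthesis, had 1 young peak and none in the aged list. The peak lay on chromosome 26 (32408293 to 32408590, minus strand), was 298 bases wide and was labelled stop codon. Its fold of 2.75 was higher than that of 82.4% of young peaks. Its p was weak for this list, with a log10 p of -3.60 that ranked 4329 of 4378 and an adjusted p of 0.000288. STAR was thus enriched by ratio but little supported by significance. Of the 100 young peaks with the weakest p, 32.0% lay in genes that also had an aged peak. Over all 4378 young peaks, 2018 lay in such genes, and counted by gene the share was 43.4%. When the young list was shortened to the 3656 most significant peaks, the length of the aged list, STAR had no peak left.

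CYP17A1, which makes androgen precursors in theca cells, also had 1 young peak and none in the aged list. It lay on chromosome 22 (23170151 to 23170299, minus strand), was 149 bases wide and was labelled stop codon. The fold was 1.56, above only 5.82% of young peaks, while the log10 p of -23.9 was stronger than that of 78.7%. The aged list held a peak in CYP17, a separate gene with the same deposited symbol and description as CYP17A1. The CYP17 peak lay on the same strand of chromosome 22 (23148917 to 23149065), 21085 bases from the young CYP17A1 peak, and no gene of the gene table started between these genes. It was also 149 bases wide, and was labelled 3' UTR with a fold of 2.22, a log10 p of -3.02 and an adjusted p of 0.0132. Its p was weak for the aged list, with a rank of 3251 of 3656.

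By symbol, a CYP17A1 peak was therefore present at both ages, and by gene it was in a different copy at each age. How reads that match both copies were assigned is not given in the sources used here, so its part in this difference was not tested. With CYP17 counted as CYP17A1, a choice made after seeing the data, 5 members had an aged peak and 3 had a peak at both ages. The CYP17A1 and CYP17 peaks lie in separate genes and did not overlap. The CYP17 peak does not pass the stricter adjusted p limit of 0.01 used as an alternative below.

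SRD5A1, a steroid 5-alpha reductase that turns testosterone and progesterone into reduced steroids, had a peak in the aged list only. The peak lay on chromosome 16 (66619976 to 66620273, minus strand) and was 298 bases wide, with a 3' UTR label. Its fold of 1.85 was close to the aged median of 1.88, and its log10 p of -8.71 was stronger than that of 74.6% of aged peaks. SRD5A3, a relative that acts on polyprenol in protein glycosylation, had overlapping 3' UTR peaks in both lists, with folds of 3.57 (young) and 2.80 (aged).

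FDX1 (adrenodoxin), the iron-sulfur protein that hands electrons to mitochondrial P450 enzymes, carried 2 peaks in each list. More than 1 peak was found in 12.1% of young and 15.1% of aged genes. The first FDX1 peak had the same start and end at both ages, on chromosome 15 (20156675 to 20164758, plus strand). It was labelled 3' UTR and covered 198 bases of transcript in a span of 8084 bases, the other 7886 being intron. Its fold was 1.80 with a log10 p of -17.5 in the young list, and 1.63 with a log10 p of -10.5 in the aged list. Identical boundaries were found for 9.59% of all overlapping pairs, and for 7.59% of pairs with an intron in both spans.

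The other FDX1 peak was labelled stop codon and ended at base 20165202 at both ages. It began at 20165054 in the young list and 49 bases earlier, at 20165005, in the aged list. The young fold was 1.63 (log10 p -17.6) and the aged fold 1.55 (log10 p -11.0). The p was stronger than that of 60.4% of young and 85.6% of aged peaks. FDX1 thus had the same pair of peaks in both lists, each with a low fold for its list. A shared 3' edge was found in 52.2% of all overlapping pairs on the plus strand.

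FDXR (adrenodoxin reductase), which passes electrons from NADPH to FDX1, had 1 young peak and none in the aged list. It lay on chromosome 11 (55881638 to 55881788, plus strand), was 151 bases wide and was labelled stop codon. Its log10 p of -62.5 ranked 21 of 4378, with a fold of only 1.59. Of the 101 young peaks ranked up to 100 by p, 40.6% lay in genes with an aged peak. Over all 4378 young peaks, 2018 lay in such genes, and counted by gene the share was 43.4%. FDX2, a second mitochondrial ferredoxin used mainly in iron-sulfur cluster assembly, had overlapping peaks with folds of 1.89 (young) and 1.70 (aged). The label of FDX2 was stop codon at the young age and 3' UTR at the aged.

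SCARB1, the receptor that takes cholesterol esters from high-density lipoprotein, had 1 aged peak and none in the young list. The peak lay on chromosome 17 (51063171 to 51063417, plus strand), was 247 bases wide and was labelled 3' UTR. It mirrored FDXR, with a log10 p of -36.7 that ranked 12 of 3656 and a fold of only 1.55. Of the 102 aged peaks ranked up to 100 by p, 60.8% lay in genes with a young peak. Over all 3656 aged peaks, 2072 lay in such genes, and counted by gene the share was 54.1%.

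SOAT1, which esterifies cholesterol for storage in lipid droplets, had 1 young and 2 aged peaks on chromosome 12 (plus strand). The young peak (60077845 to 60078043) was labelled stop codon, with a fold of 3.00 that exceeded 87.2% of young peaks and a log10 p of -20.6. An aged peak with the same label ended at the same base and began 49 bases later, at 60077894. Its fold was 2.19 and its log10 p -9.32. Within its own list, the p of this stop codon peak was stronger than that of 71.3% of young and 78.8% of aged peaks. A further aged peak (60077448 to 60077597) was labelled 3' UTR, with a fold of 2.14, a log10 p of -5.13 and an adjusted p of 0.000162. It lay 296 bases upstream of the aged stop codon peak and overlapped no young peak. Of the 2 genes found at both ages, 3 of 3 young peaks overlapped an aged peak (74.2% over all shared genes) and 3 of 4 aged peaks a young one (72.2%). The 3 overlapping pairs carried the same label, as did 72.3% of all such pairs.

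**Figure D2:**
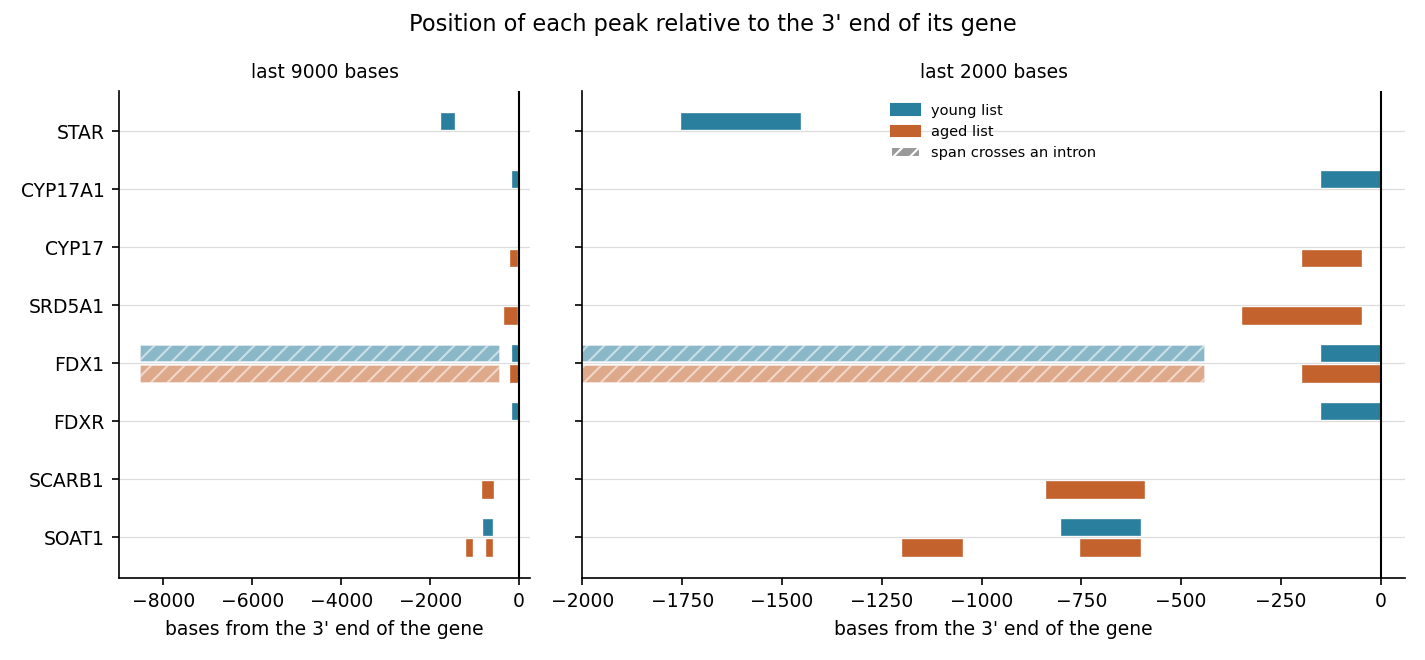
Position of each peak as bases from the 3' end of its gene (x axis, 0 is the gene end), over the last 9000 bases (left) and the last 2000 bases (right). Blue bars are young and orange bars aged peaks, drawn from start to end, and hatched bars cross an intron. Peaks of CYP17A1, FDX1 and FDXR reached the gene end, aged peaks of SRD5A1 and CYP17 stopped 49 bases short of it, and STAR and SOAT1 peaks lay further inside.

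The 12 peaks shared a place near the 3' end of the gene. The centres lay between 78.7% and 99.8% of the gene length from its start in the young list, and between 86.3% and 99.7% in the aged list. STAR held the lowest of these values. The centre of the median peak was at 97.5% (young) and 96.3% (aged) over all genes, and most members lay around these values. Each of the 12 carried a stop codon or a 3' UTR label. In the young list 5 of 6 were labelled stop codon, against 41.3% of all young peaks, and 1 was labelled 3' UTR, against 47.3%. In the aged list 2 of 6 were labelled stop codon, against 15.3% of all aged peaks. Both were on the plus strand, where the aged share was 27.5%, against 2.58% on the minus strand. The other 4 were labelled 3' UTR, against 66.4%. An intron lay inside 1 of 6 peaks in each list, the FDX1 peak above, against 16.9% of all young and 22.5% of all aged peaks.

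In FDX1 and SOAT1 the stop codon label did not mark a place upstream of the 3' UTR label. In FDX1, the peak labelled stop codon lay 295 bases downstream of the peak labelled 3' UTR in the young list and 246 bases downstream in the aged list. In SOAT1 the order was the same in the aged list, the only one with both labels. The stop codon peaks of CYP17A1, FDX1 and FDXR reached the final base of their gene model, where a 3' UTR ends. Those of SOAT1 ended 603 bases before the gene end. That of STAR ended 1455 bases before it, and its place relative to the stop codon was not determined here.

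The aged peaks of SRD5A1 and CYP17, both minus-strand genes, ended exactly 49 bases before the gene end and were labelled 3' UTR. Among 1772 aged minus-strand peaks with a gene in the table, 17.2% (Wilson 95% interval 15.5 to 19.0) stopped 49 or 50 bases short. None of the 1772 ended exactly at the last base, which allows a share of up to 0.169% (3 counts), and 1.19% ran past it. On the young minus strand 5.67% (4.73 to 6.77) stopped 49 or 50 bases short, 27.9% (25.9 to 29.9) ended exactly at the last base, as CYP17A1 did, and 3.39% ran past it. On the plus strand, 30.7% (28.8 to 32.6) of young peaks and 17.7% (16.1 to 19.5) of aged peaks ended exactly at the last base, and 3.87% and 3.06% ran past it. The intervals cover counting error only. Of the 305 aged minus-strand peaks that stopped 49 or 50 bases short, 292 were labelled 3' UTR and 4 stop codon. Of the 551 young minus-strand peaks that ended exactly at the last base, 548 were labelled stop codon. The young label of CYP17A1 and the aged labels of CYP17 and SRD5A1 thus went with strand and list, and a change of methylated site cannot be read from them. The FDX2 labels, also on the minus strand, differed in the same way between lists. The young FDX2 peak ended at the last base, but the aged one ended 150 bases before it, outside the class of 49 or 50 bases. Members on the plus strand found at both ages, FDX1 and SOAT1, kept label and 3' edge for each overlapping pair.

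**Figure D3:**
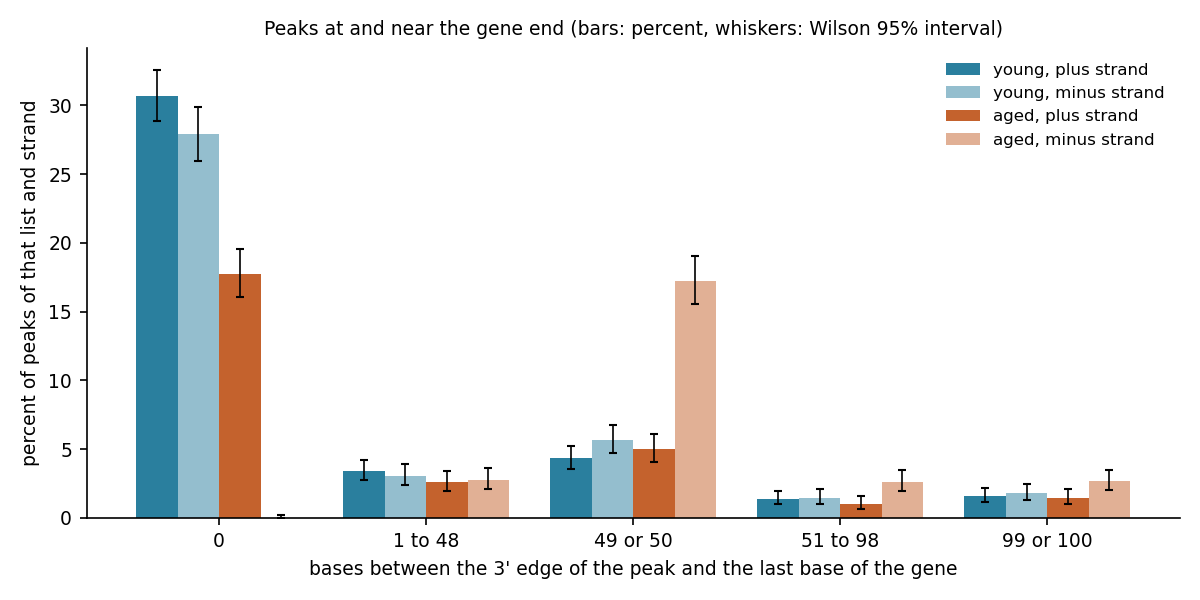
Percent of peaks (y axis, with Wilson 95% intervals) by the number of bases between the 3' edge of the peak and the last base of the gene, for both lists and strands. Aged minus-strand peaks had none that ended exactly at the last base and 17.2% at 49 or 50 bases, the class that holds the SRD5A1 and CYP17 peaks.

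Within each list the members differed in p and in fold, which are on unlike scales, so their spreads were not compared. Young log10 p ran from -3.60 (STAR) to -62.5 (FDXR), and 5 of 6 peaks were stronger than the young median of -15.3. Aged log10 p ran from -5.13 (the upstream SOAT1 peak) to -36.7 (SCARB1), and again 5 of 6 were stronger than the aged median of -6.22. All 12 peaks had an adjusted p of at most 0.000288. In each list, 2 of 6 folds were above the list median, those of STAR and SOAT1 in the young list and of both SOAT1 peaks in the aged list. Most peaks of these genes thus had a stronger p and a lower fold than the median of their list.

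**Figure D4:**
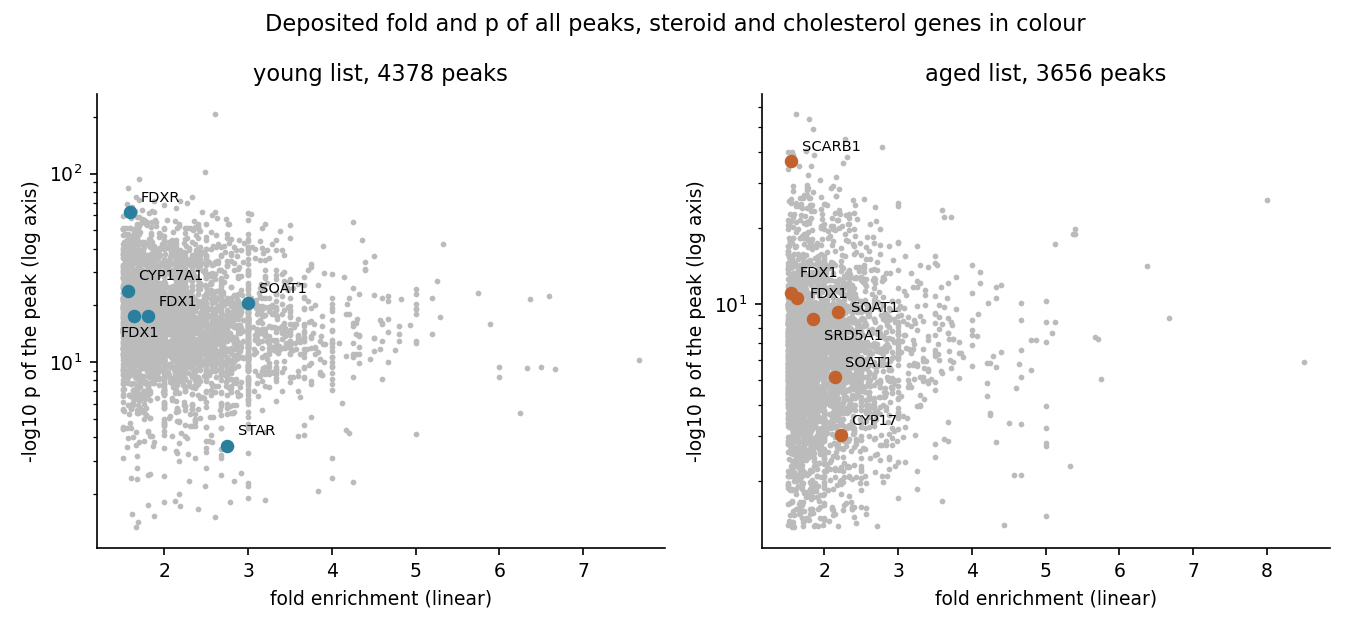
Fold enrichment (x axis, linear) against -log10 p (y axis, log scale) of all 4378 young (left) and 3656 aged peaks (right), with the peaks of the 7 genes and CYP17 in colour. FDXR and SCARB1 stood high at folds of 1.59 and 1.55, and STAR low at a fold of 2.75.

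The wider pathway was described with 10 lists of 138 genes, the 7 members and 131 others, chosen with earlier results of these data known. Of these 131, 33 (25.2%) had a young peak and 25 (19.1%) an aged peak, against 17.9% and 14.4% of all protein-coding genes. Of the 42 with any peak, 17 (40.5%) were found in the young list only, 9 (21.4%) in the aged list only and 16 (38.1%) in both, near the background shares of 41.3%, 26.9% and 31.8%. In 12 of the 16 shared genes a young and an aged peak overlapped. Over all shared genes, counted by peak, 74.2% of young and 72.2% of aged peaks overlapped a peak of the other list. The median fold of the wider genes was 2.16 over 36 young peaks and 1.88 over 29 aged peaks, beside 2.05 and 1.88 for all peaks. The counts per pathway below take a peak in either list. In all, 5261 genes of any type had one, beside 21300 protein-coding genes in the gene table.

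Of 29 other steroid enzyme genes, 5 had a peak. HSD17B4 (2.50) and the steroid sulfatase gene STS (2.10) had one in the young list only. HSD17B8 (1.52) and LOC114108679, whose deposited symbol is CYP21, the steroid 21-hydroxylase (3.25), had one in the aged list only, and SRD5A3 was shared. Neither list had a peak for CYP11A1, for HSD3B1, which makes progesterone, or for the aromatase gene CYP19, which does not show that these lack m6A. Among 5 other electron supply genes, LOC101115252, with the symbol POR, the reductase that serves microsomal P450 enzymes including CYP17A1, had an aged exon peak (1.58), and FDX2 was shared. LOC genes were matched by symbol and may be copies of the named gene.

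Mitochondrial cholesterol delivery had 2 of 8 other genes with a peak, both shared. STARD3, a STAR relative on late endosomes, had overlapping 3' UTR peaks with folds of 1.60 (young) and 1.59 (aged). ACBD3, a Golgi protein, had a young exon peak (2.67) and an aged 3' UTR peak (2.00) that did not overlap. Of 19 other uptake and trafficking genes, counted by symbol, 4 had a peak. The lipoprotein receptor gene VLDLR was young-only (2.64), and the sterol transfer gene GRAMD1A was aged-only (1.52). LOC101102230, with the symbol CD36 (2.78 and 1.95), and LOC101112419, with the symbol OSBP (1.82 and 2.04), were shared. LOC101115115, a further gene with the symbol CD36, had a peak in the aged list alone (2.33).

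The ester and lipid droplet list had peaks in PLIN3 (1.56) and PLIN5 (2.33), droplet coat genes found in the young list only. Of 4 cholesterol efflux genes, the exporter gene ABCA1 (5.33) and NR1H3 (1.67), the liver X receptor that induces it, were young-only, and ABCG1 was shared with overlapping peaks (2.00 and 1.86) labelled stop codon. Beside SOAT1, these lists together held 4 young-only genes, 1 shared and no aged-only gene. No peak was found for 8 of the 10 other ester and lipid droplet genes and for 1 of the 4 efflux genes. The number of genes is too small to set against the 41.3% background.

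Of 22 cholesterol synthesis genes, 10 had a peak, with 5 in both lists, 3 young-only and 2 aged-only. The genes were listed with earlier results of these data known, so the count, of a peak in either list, is a description only. Those in both lists included IDI1, FDPS, GGPS1 and FDFT1, which make isoprenoid precursors and squalene. The young-only genes included TM7SF2 and LOC101102976, with the symbol EBP, which act on later sterols, and the aged-only genes were HMGCS1 and DHCR7. The highest folds of the genes named were those of GGPS1 (4.67, aged), LOC101102976 (4.25, young) and IDI1 (3.67, young). The LOC101102976 peak lay beyond its gene model, at -11459 bases on the scale of distance before the gene end, and whether it belongs to that gene was not tested. The IDI1 peaks did not overlap and were labelled 5' UTR in the young list and exon and 3' UTR in the aged list.

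Sterol sensing genes had peaks in 5 of 10. The lists in this paragraph were also chosen with earlier results of these data known, so their counts are descriptions only. Over all genes, 5261 of any type had a peak in either list, beside 21300 protein-coding genes in the gene table. INSIG1 (2.47) was aged-only and its relative INSIG2 (2.60) young-only, both encoding proteins that hold the sterol sensor in the endoplasmic reticulum. The protease genes MBTPS2 (3.00) and MBTPS1 (1.71), whose products release SREBP, were young-only, and the ligase gene RNF139 was shared (2.45 and 1.94). Among 15 transcription factor genes, CEBPB (6.00) and NR2F2 (2.67) were young-only, SP1 (3.00) and CREM (2.00) aged-only, and NR5A2, GATA6 and NR0B1 shared. NR5A2 and GATA6 are activators and NR0B1 a repressor of steroid enzyme genes. Of 9 steroid receptor genes, PGRMC2 (2.82) and the progesterone receptor gene PGR (1.5) were young-only.

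**Figure D5:**
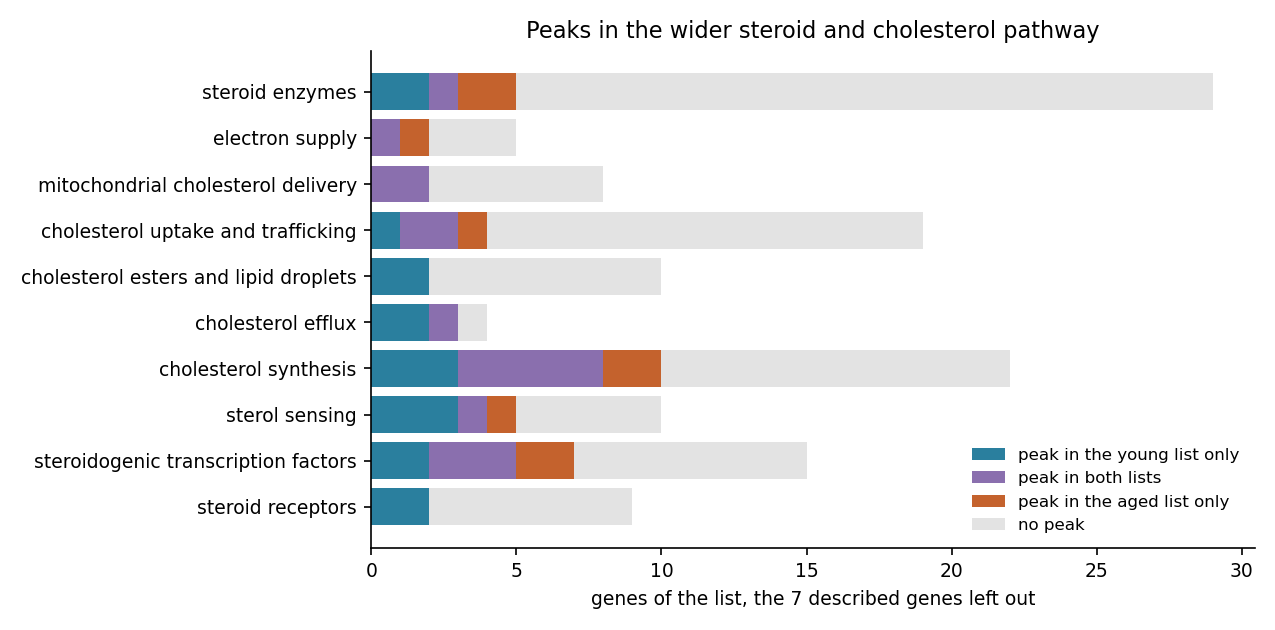
Number of genes (x axis) in each of the fixed pathway lists with a peak in the young list only, in both lists, in the aged list only or in neither, leaving out the 7 described genes. Cholesterol synthesis had the most genes with a peak, 10 of 22, of which 5 were in both lists. Over all protein-coding genes, 17.9% had a young and 14.4% an aged peak. These are shares of single lists, while the 10 of 22 counts a peak in either list. In either list 5261 genes of any type had a peak, beside 21300 protein-coding genes in the gene table.

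Among the 17 other genes of these lists with a peak at both ages, those nearest to FDX1 in log2 of the highest young and aged fold were NR0B1 (1.86 and 1.63) and FDX2 (1.89 and 1.70), at distances of 0.05 and 0.09. Those nearest to SOAT1 were CD36, taken by symbol over its LOC genes (2.78 in LOC101102230 and 2.33 in LOC101115115), and ACBD3 (2.67 and 2.00), at distances of 0.14 and 0.21. Each distance rests on 2 values per gene.

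In the authors' own pathway annotation, steroid hormone biosynthesis had 10 genes with a peak, 3 young-only, 6 aged-only and 1 shared. CYP17A1 was among the young-only and SRD5A1, CYP17 and LOC114108679 were among the aged-only genes. Ovarian steroidogenesis had 20 genes, with 8 young-only, including STAR and CYP17A1, 4 aged-only, including SCARB1 and CYP17, and 8 shared, including the hormone receptor gene FSHR. Cholesterol metabolism had 11 genes, with 4 young-only, including STAR, 2 aged-only, including SCARB1, and 5 shared, including SOAT1. Steroid biosynthesis had 6 genes, 3 young-only, 1 aged-only and 2 shared, including SOAT1. The background shares were 41.3% young-only, 26.9% aged-only and 31.8% shared, and with so few genes a term the counts are given as a description only. These terms were looked up after seeing the data and overlap in genes. FDX1, FDXR, STAR and SRD5A1 shared the deposited term steroid biosynthetic process.

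The tissue label was checked against marker genes, for which a peak shows only that the transcript was covered. Of 7 granulosa markers 3 had a peak, with FSHR and INHBB at both ages. Of the theca and luteal markers, INSL3, LHCGR, CYP11A1 and HSD3B1 had none. The remaining theca and luteal markers, STAR and CYP17A1, are members chosen with their peaks known and say nothing of the tissue. Of 7 oocyte markers 3 had a peak, and for stroma, endothelium and macrophages it was 3 of 4 each. Of 3 adrenal cortex markers only the CYP21 copy had a peak. These counts take a peak in either list, which 5261 genes of any type had, beside 21300 protein-coding genes in the gene table. With so few markers per cell type, they do not settle the tissue. The endothelial peaks, in PECAM1, KDR and VWF, were all in the aged list. Other markers went the other way or were mixed. Of the macrophage markers, CD68 and CD163 were young-only and AIF1 shared. Of the oocyte markers, ZP2 and FIGLA were young-only and NOBOX aged-only. Among stroma markers, DCN was young-only, PDGFRA aged-only and COL1A1 shared, and the granulosa marker INHBA was young-only. Whether cell makeup moved with the member peaks was not tested.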

How the data were processed

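RNA of young and aged sheep ovary was immunoprecipitated with an antibody against m6A. Per the labels' protocols, libraries came from a stranded total RNA kit and an Illumina NovaSeq instrument. The submitters' processing notes name ChIPseeker and DESeq2, without a role. The sources used here do not give the aligner, peak caller, genome build or depth. Per the file headers, the authors list a fold enrichment (a ratio) for every peak. P-values, raw and adjusted, are also the authors', per the file headers. The deposited log10 p columns were treated as a score. Coordinates and widths are as deposited, with starts shifted by 1 base to count from 1.

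Members were matched by gene name, and LOC genes by deposited symbol. Gene ends, chromosome numbers and neighbours came from a table of assembly ARS-UI_Ramb_v3.0, matched by identifier for 99.5% of genes. The files name no build, so distances to gene ends assume the same gene models. Overlap meant at least 1 shared base of span on the same strand. A percentile is the share of peaks in the same list with a lower fold or weaker p. Overlap code was tested on simulated data.

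The members and the 10 pathway lists were chosen with earlier results of these data known. Every member peak, every list gene with a peak, the folds of up to 4 genes per list, and the 2 nearest genes to each shared member were named. CYP17, the deposited pathway terms, the counts by significance and further folds were chosen after values were seen. Some genes that the rule selects are left out here. Alternatives were a fold minimum of 2.00 (the median over both lists), adjusted p up to 0.01, lists of equal length, exon and UTR labels only, peaks within 1 exon, names without LOC symbols and overlap by 50% of both peaks. Tools were scipy 1.17.1, numpy 2.4.6, pandas 2.3.3 and matplotlib 3.10.9 in Python 3.11.15.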

Additional observations from a re-analysis of the deposited data

How the results depend on the processing

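Of 45 alternative values, 35 stayed within 1.5 times of the reported count. Some of these could not move, so the tally is no measure of stability. No member is a LOC gene, every member peak passes an adjusted p of 0.01, and the aged list is already the shorter one. The 45 also include counts with CYP17 taken as CYP17A1, a choice made after seeing the data. With folds of at least 2.00, members with a young peak fell from 5 to 2 (STAR and SOAT1), with an aged peak from 4 to 1 (SOAT1) and at both ages from 2 to 1, and overlapping member peaks from 3 to 1. The same setting left 19 of 33 wider pathway genes with a young peak, 11 of 25 with an aged peak and 4 of 16 with both. With only exon and UTR labels, which drops every stop codon peak, 1 member kept a young peak (FDX1), all 4 kept an aged peak, 1 had a peak at both ages and 1 pair overlapped. Adjusted p up to 0.01, lists of equal length, peaks within 1 exon, names without LOC symbols and overlap of at least 50% left every count within 1.5 times. Lists of equal length lost STAR. Overlap of exon blocks was not run because the files give no block positions. No paired analysis was possible because each age had a single list, and no test was made. The young and aged samples also share no replicate number. No replicate could be left out, with 1 list per age. Depth was not given, so a missing peak may reflect few reads, and this was not tested.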
